A study of Mus musculus with 20 samples.

Results

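The genes described here are 8 selenoprotein genes outside the glutathione peroxidases: Selenop, Selenof, Selenok, Selenom, Selenon, Selenos, Selenot and Selenow. They were taken by symbol from the 14456 genes of a table of normalized counts, after the Ensembl identifiers of the table had been matched to GENCODE M21, and all 8 were found. The set was selected on 1 measured value, the difference of Selenop between the 2 exosome groups, so that difference is given below as a description and not as a test. The table covers 20 libraries of total RNA from mouse bone marrow-derived macrophages (BMDM), with 4 libraries in each of 5 groups.

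All BMDM came from wild type male C57BL/6 mice, for which the methods give an age of 8 weeks in one place and of 8 to 12 weeks in another, and were grown from marrow for 6 days with 25 ng/ml of M-CSF, the growth factor that drives macrophage differentiation. In the glucose experiment the culture went on for 24 h with glucose at 25 mM (high glucose), or at 5.5 mM with 19.5 mM of mannitol, a sugar alcohol that balances osmolarity (normal glucose). In the exosome experiment, naive BMDM were exposed for 24 h to saline (PBS), to exosomes of BMDM kept in normal glucose (BMDM-NG-exo) or to exosomes of BMDM kept in high glucose (BMDM-HG-exo), the vesicles at 2000000000 particles per ml. Exosomes are small vesicles that cells release, and the question of the study was whether those made in high glucose carry a signal to other cells. The study gives separate exosome preparations for the libraries of the exosome experiment. For the glucose libraries no source used here says that they came from separate animals, so their p-values measure the spread between libraries, which may be technical.

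Selenoproteins contain selenocysteine, an amino acid like cysteine with selenium in place of sulfur, which is more readily oxidized and often forms the active site. It is encoded by UGA, normally a stop codon, which is read as selenocysteine when a stem-loop in the 3′ untranslated region, the SECIS element, recruits the protein Secisbp2, the elongation factor Eefsec and a dedicated tRNA. Selenop is the secreted selenium carrier of plasma, made mainly in liver. Most of the other genes described here encode proteins of the endoplasmic reticulum (ER) or its membrane. Selenof binds the glucosyltransferase Uggt1, which checks glycoprotein folding. Selenok and Selenos are membrane proteins that take part in the removal of misfolded proteins from the ER, and Selenok also works with the palmitoyltransferase Zdhhc6 and the calcium channel Itpr1 in immune cells. Selenom and Selenot are thioredoxin-like ER proteins, Selenon is a calcium-sensing ER protein known from congenital muscle disease, and Selenow is a small thioredoxin-like protein of the cytosol.

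The selenocysteine codon shows how these genes differ, so the coding sequence around it is given for each gene, from the GENCODE M21 transcripts (GRCm38), 5′ to 3′, with the TGA of 1 selenocysteine codon in capitals. For Selenop the first of its selenocysteine codons is shown, together with the last, whose stretch also holds the one before it (codon 375), left in lower case. That last stretch and those of Selenok and Selenos end with the true stop codon.
Selenop, first: cttcaagccagcTGAtacttgtgtcttctg
Selenop, last: aggaagtgaaaaTGAcattcaaactaa
Selenof: gaagtctgcggaTGAaaattggggaggttc
Selenok: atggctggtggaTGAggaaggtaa
Selenom: acctgtggaggaTGAcagttgaatcgccta
Selenon: gaccagtcctgcTGAggttccgggcggact
Selenos: tcatctggcggcTGAaactaa
Selenot: atttgtgtatccTGAgggtaccggcgggtg
Selenow: tattgtggagctTGAggctataagcccaag

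Selenop alone had more than 1 selenocysteine codon. Of its 380 codons 10 were TGA, the first at codon 59 (chr15:3274848-3274850) and the other 9 between codons 259 and 377. In Selenom, Selenot and Selenow a cysteine codon lay 3 codons before the selenocysteine codon, and in Selenof it lay 2 codons before. In Selenon it was the codon just before, and after the first selenocysteine codon of Selenop it followed at a distance of 3 codons. These pairs of cysteine and selenocysteine are the redox motifs of the thioredoxin-like members. No cysteine codon lay within 3 codons of the selenocysteine codon of Selenok or Selenos, where it stands at the very end of the protein: codon 92 of 94 in Selenok (chr14:29973440-29973442) and codon 189 of 190 in Selenos (chr7:66088844-66088846). In Selenow it was codon 13 of 88 (chr7:15920464-15920466, minus strand). The true stop codon of Selenow is itself tga.

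**Figure D1:**
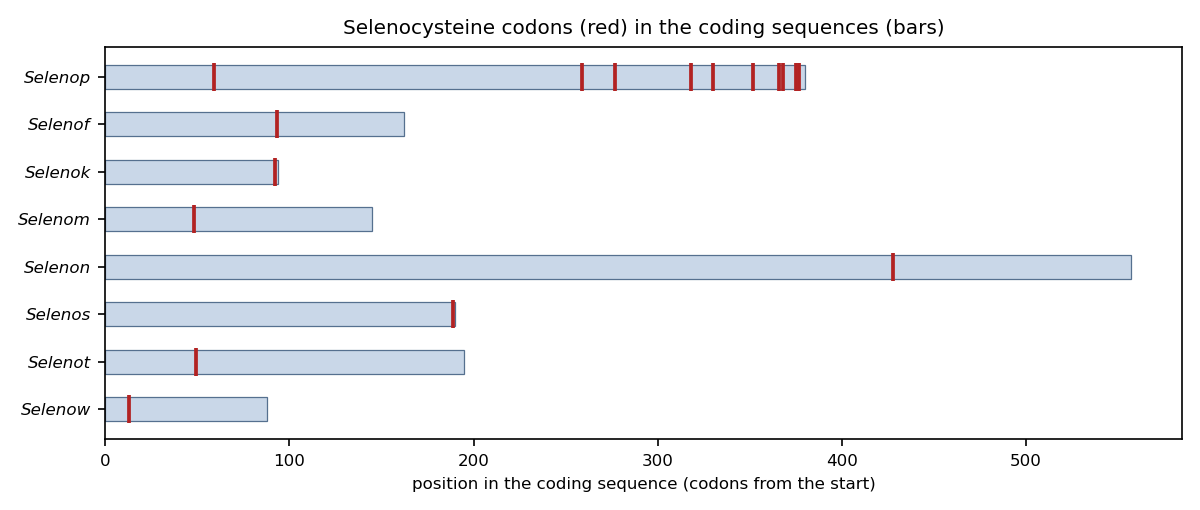
Selenocysteine codons (red marks) along the coding sequence (bars, in codons from the start) of the 8 genes. Selenop holds 10 such codons, 9 of them in the later part of the sequence, while Selenok and Selenos carry theirs at the end.

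The genes lie on 6 chromosomes (GRCm38), with 2 genes each on chromosomes 3 and 7. Selenop (ENSMUSG00000064373) spans chr15:3268547-3280508, Selenot (ENSMUSG00000075700) chr3:58576636-58593133 and Selenof (ENSMUSG00000037072) chr3:144570304-144597680. Selenok (ENSMUSG00000042682) spans chr14:29968308-29975662, Selenom (ENSMUSG00000075702) chr11:3514684-3517351 and Selenos (ENSMUSG00000075701) chr7:66079649-66089405. These 6 are on the plus strand. Selenon (ENSMUSG00000050989, chr4:134537892-134552166) and Selenow (ENSMUSG00000041571, chr7:15917208-15922402) lie on the minus strand. Selenop overlaps Ccdc152 and Selenof overlaps the small nucleolar RNA gene Gm24406, each on the opposite strand and neither among the genes of the table. The counting used strand.

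Read totals ran from 34016445 to 56310712 per library. The PBS libraries were the shallowest by their median of 36622308.5 reads, against 47923964.5 for BMDM-NG-exo and 44199837 for BMDM-HG-exo. A member gene had between 335 reads (Selenom) and 137674 reads (Selenop) in a library. All 8 macrophage markers examined were listed, led by Lyz2 (lysozyme) with a mean normalized count of 568331 and Csf1r (the M-CSF receptor) with 105691. Of the markers of T cells, erythroid cells and dendritic cells none was listed, and those of neutrophils (5 of 8 listed), B cells (1 of 4) and fibroblasts (3 of 6) summed to at most 378, 68.0 and 349 normalized counts in a library. The labelled cell type is therefore the one whose defining markers were abundant. The summed macrophage markers moved with the groups: they were 628420 to 702912 in normal glucose, 808014 to 878735 in high glucose, 794502 to 841224 in PBS, 717507 to 773976 in BMDM-NG-exo and 735061 to 759636 in BMDM-HG-exo. Lyz2 alone had 447542 to 664964 normalized counts in a library and made up most of each sum. The part of these sums in the results below was not tested. In such bulk libraries, fewer cells that express a gene and less of its RNA per cell cannot be told apart.

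Selenop was by far the most abundant of the 8 transcripts. Its mean normalized count over the 20 libraries was 95051, which ranked 25 among the 14456 genes, and it took 0.187% to 0.284% of all reads of a library. Levels of different genes were compared per kilobase (kb) of merged exons. On this scale Selenop stood at 33445 normalized counts per kb, 11.5-fold above Selenok (2899), the next gene. Selenot (1483), Selenow (1271), Selenos (1011), Selenon (820), Selenof (754) and Selenom (333) followed, and Selenop exceeded Selenom 100.3-fold. Libraries of neighbouring genes overlapped in this order from Selenot to Selenof, while Selenop, Selenok and Selenom each stood clear of the rest. With the length of the longest transcript in place of merged exons, Selenof moved from place 7 to place 3. Selenop made up 79.6% to 85.3% of the summed normalized counts of the 8 genes.

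**Figure D2:**
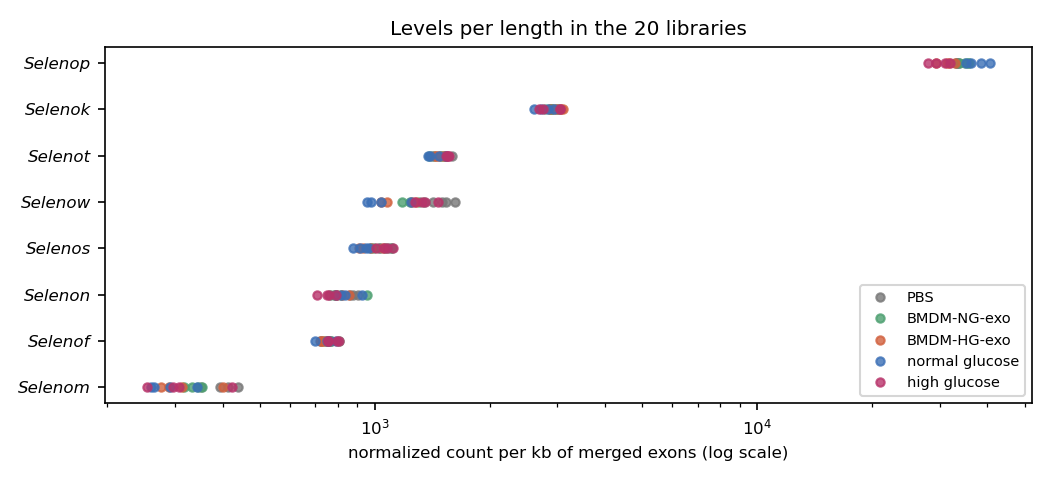
Normalized count per kb of merged exons (log axis) of each gene in the 20 libraries, 1 point per library, colored by group. Selenop lies above Selenok by a mean of 11.5-fold, and the genes from Selenot to Selenof overlap.

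In high glucose these genes moved in both directions. Selenop and Selenon fell, while Selenow and Selenos rose, and the other 4 did not pass the test. The comparison of 25 mM with 5.5 mM glucose asks what the macrophages that release the exosomes undergo themselves. It shares no library with the difference that chose the set, though earlier results of these data were known at that choice. Values were compared on log2 of the normalized count plus 1 with limma, and a gene was called where its p-value, adjusted by the Benjamini-Hochberg (BH) method over all 14425 genes tested, was under 0.05. Standard errors (SE) are on the log2 scale. By this rule 4 of the 8 genes were called, 2 higher and 2 lower, against 13.3% of all genes (7.74% higher and 5.53% lower). The groups did not overlap for 4 of the 8 genes (Selenop, Selenos, Selenot and Selenow), as for 16.3% of all genes. The labels give no date or batch for these 8 libraries, so no value within a batch can be given. Percent changes given below are those of the log2 fold change, and differ slightly from the ratio of the means. The median log2 fold change was 0.08 for the 8 genes and -0.0031 for all genes.

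In normal glucose, Selenop had 99819, 102768, 109654 and 115334 normalized counts in the 4 libraries. In high glucose it had 88262, 90706, 83375 and 79348. Each high glucose library lay below each normal glucose library. The means were 106894 ± 6975 (normal glucose) and 85423 ± 5069 (high glucose; SD, n = 4 each), a log2 difference of -0.32 with an SE of 0.0397 (limma BH-adjusted p = 1.72e-07). The level of this selenium carrier thus fell by 20.1%, in the group where the summed macrophage markers (mostly Lyz2) were higher. Selenop stayed called whichever of the 8 libraries was left out. It was also called in all 9 other alternatives (limma, edgeR or DESeq2), where its highest adjusted p of 0.0404 came near the threshold.

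Selenow moved the other way. Its 4 libraries in normal glucose had 915, 702, 763 and 720.5 normalized counts. Those in high glucose had 976, 993, 1077 and 940.2, all above the normal glucose libraries. The means were 997 ± 58.1 and 775 ± 96.9 (SD, n = 4 each), and the log2 fold change was 0.37 (SE 0.0803, limma BH-adjusted p = 0.00129), or 29.1% more. The call held without any 1 library, but without the trend of the variance on the mean its adjusted p from limma was 0.0703.

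Selenos had 1428, 1293, 1352 and 1398 normalized counts in normal glucose. In high glucose the values were 1565, 1592, 1649 and 1486, again without overlap. This partner of ER retrotranslocation was 15.0% higher, with a log2 fold change of 0.20 (SE 0.0595, limma BH-adjusted p = 0.0192). The call rested on single libraries: leaving out normal glucose 3 gave an adjusted p of 0.0605, normal glucose 5 gave 0.0501, high glucose 2 gave 0.0544 and high glucose 4 gave 0.0805 (limma). Without the variance trend it was 0.0754.

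Selenon had 2863, 3029, 3361 and 2946 normalized counts in normal glucose. In high glucose it had 2743, 2716, 2875 and 2552. The groups overlapped, since the highest high glucose library lay above the lowest normal glucose library. The level fell by 10.7%, with a log2 fold change of -0.16 (SE 0.0520, limma BH-adjusted p = 0.0314). This call was lost without normal glucose 5 (adjusted p = 0.184, limma), high glucose 1 (0.0530), high glucose 2 (0.0680) or high glucose 6 (0.146), and without the variance trend (0.198).

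Selenot, the thioredoxin-like protein of the ER, had 4737 to 5267 normalized counts in normal glucose and 5273 to 5377 in high glucose. The groups were apart by a small gap, and the log2 fold change of 0.10 had a 95% interval from 0.02 to 0.19 (limma BH-adjusted p = 0.106). Without normal glucose 3 it passed (adjusted p = 0.0346, limma). Selenof, with 4052 to 4622 normalized counts in normal glucose and 4391 to 4683 in high glucose, had a log2 fold change of 0.05 (interval -0.04 to 0.14). Selenok ranged from 4945 to 5565 and from 5077 to 5784, a log2 fold change of 0.06 (interval -0.04 to 0.15). Selenom, the least abundant of the 8, ranged from 384 to 507 and from 377 to 628, and its log2 fold change of 0.13 had the widest interval among the 8, from -0.11 to 0.38. In all 3 genes the groups overlapped.

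**Figure D3:**
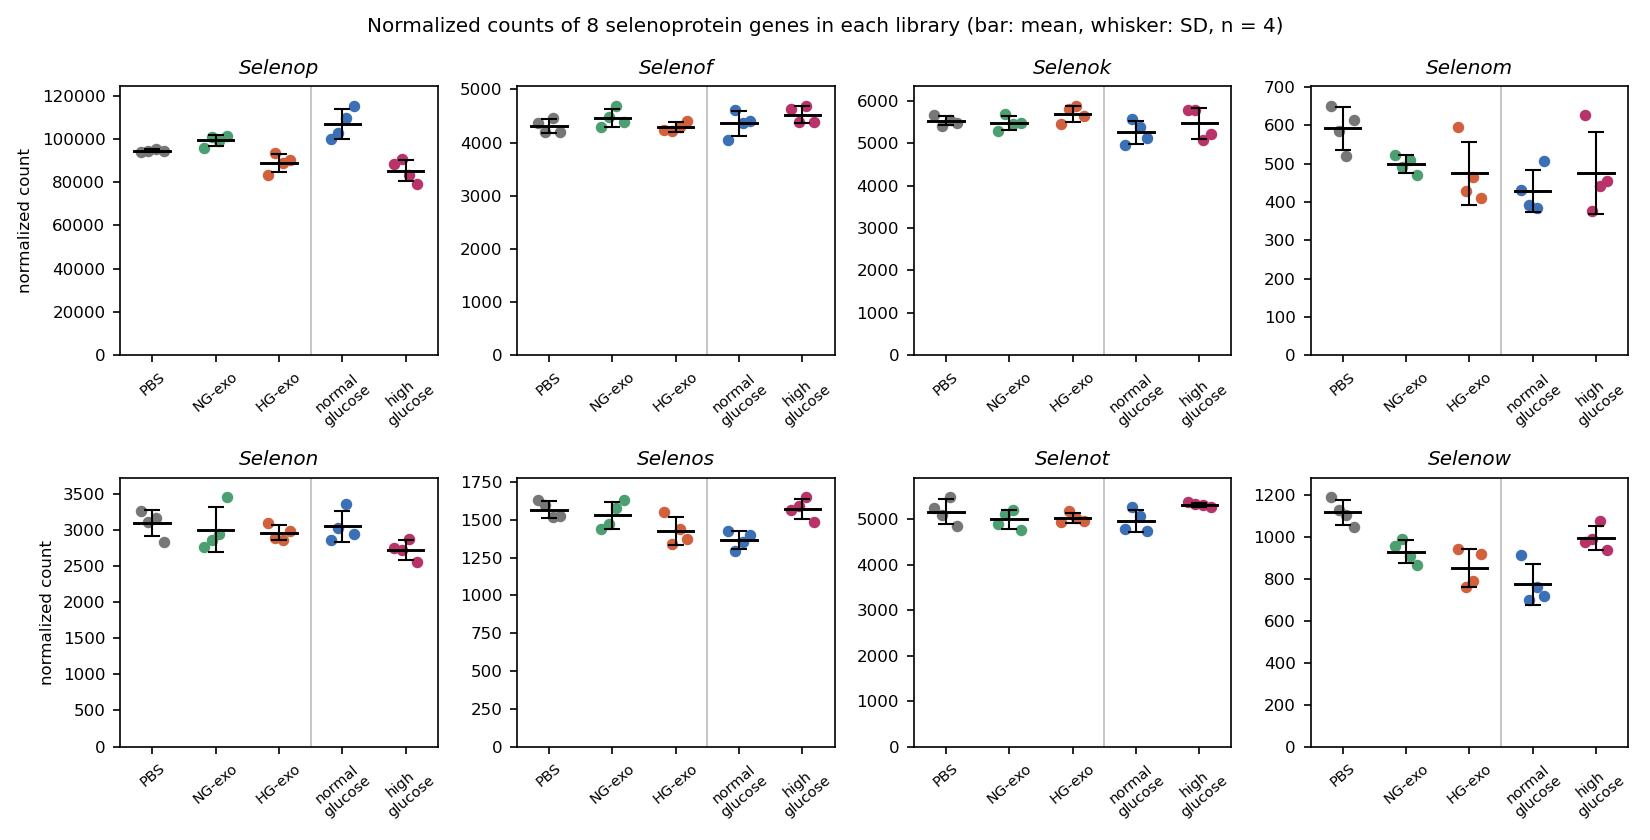
Normalized count of each gene in each library, 1 point per library, with the mean (bar) and SD (whisker, n = 4) of each group. The exosome experiment stands left of the grey line and the glucose experiment right of it. Selenop is lowest in high glucose (mean 85423) and in BMDM-HG-exo (mean 88966), and Selenow is highest in PBS (mean 1118).

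The exosome experiment asks what the vesicles do to BMDM that received no glucose treatment of their own. Its comparisons share libraries with one another, so the values of each are given side by side and are not independent. Calls here needed a BH-adjusted p-value under 0.05 over 14413 genes and also a log2 fold change of 0.15 or more in either direction. Since the difference between the exosome groups chose the set, no test of Selenop is used in any of these comparisons, and no test of any of the 8 genes in BMDM-HG-exo against BMDM-NG-exo. Where the values of these also passed the call rule, that is given as a description.

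Selenop had 93861, 94352, 95578 and 94533 normalized counts in PBS. In BMDM-NG-exo it had 95794, 101078, 99196 and 101503, and in BMDM-HG-exo it had 83192, 93338, 89132 and 90201. The 3 groups were fully apart, with BMDM-NG-exo highest, PBS in the middle and in the narrowest range, and BMDM-HG-exo lowest. The means were 99393 ± 2600.1, 94581 ± 723 and 88966 ± 4243 normalized counts (SD, n = 4 each). With BMDM-HG-exo the level fell by 10.5% from that with BMDM-NG-exo, a log2 fold change of -0.16. The labels give the same 4 dates in each group. Within each date Selenop was lower in BMDM-HG-exo than in BMDM-NG-exo, as groups fully apart must be, by log2 differences from -0.20 to -0.11. The log2 fold change was 0.07 for BMDM-NG-exo against PBS, -0.09 for BMDM-HG-exo against PBS and -0.13 for BMDM-HG-exo against PBS and BMDM-NG-exo together.

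Between the exosome groups, Selenop was the only 1 of the 8 genes past the call rule, which 0.0139% of all genes passed, and the only 1 whose groups did not overlap (3.86% of all genes). This is the comparison used to choose the set, and nothing is read from these counts. The log2 fold changes of the other 7 genes lay between -0.13 (Selenow) and 0.06 (Selenok), with overlapping groups. Across all 5 groups, Selenop was ordered from normal glucose (mean 106894) through BMDM-NG-exo, PBS and BMDM-HG-exo to high glucose (85423). Neighbours overlapped at both ends of this order, between normal glucose and BMDM-NG-exo and between BMDM-HG-exo and high glucose. For the other 7 genes each group overlapped its neighbour in the order of their means.

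Selenow was lower in BMDM that had received BMDM-HG-exo than in PBS. It had 1190.4, 1129, 1106 and 1048 normalized counts in the PBS libraries. With BMDM-NG-exo it had 959.7, 989.7, 910.2 and 866, and with BMDM-HG-exo 942, 764, 791 and 919. All exosome libraries lay below all PBS libraries, and the 2 exosome groups overlapped. For BMDM-HG-exo against PBS the means were 854 ± 89.6 and 1118 ± 58.9 (SD, n = 4 each), and the level fell by 23.9%, with a log2 fold change of -0.39 (SE 0.0778, limma BH-adjusted p = 0.000780). It was lower in 4 of 4 dates, which follows from groups without overlap and adds nothing to it. Selenow stayed called whichever of the 12 libraries was left out. The PBS libraries were also the shallowest group and had the highest summed macrophage markers (mostly Lyz2) of the 3, and the part of either was not tested. Protein-coding genes with at most 1000 bases of merged exons, the length class of Selenow (736 bases), showed a median log2 difference of -0.0061 between these groups (262 genes, a class chosen after the values were seen).

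For BMDM-NG-exo against PBS, the log2 fold change of Selenow was -0.26 (standard error 0.0778), so that it fell by 16.7%, and the limma BH-adjusted p of 0.0509 lay just above the threshold. With the date as a block, which pairs the libraries, it was 0.0360, and DESeq2 gave 0.0223. Over all alternatives it ran from 0.0223 to 0.185. Selenow was lower in 4 of 4 dates here too, which again follows from groups without overlap. Against PBS and BMDM-NG-exo together, the log2 fold change for BMDM-HG-exo was -0.26 (limma BH-adjusted p = 0.170).

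Of the 7 genes tested in BMDM-HG-exo against PBS, Selenow was the only 1 called, where 4.84% of all genes were called (3.08% lower), and the only 1 without overlap (10% of all genes). In BMDM-NG-exo against PBS none of the 7 was called with limma or edgeR and 1, Selenow, with DESeq2, where 3% of all genes were called with limma. Of the 14413 genes, edgeR called 445 and DESeq2 512 in that comparison. Without adjustment 2 of the 7, Selenom and Selenow, had p-values under 0.05, and the groups of 1 did not overlap (8.27% of all genes). Such p-values were common: the unadjusted limma p of 0.0291 of Selenom ranked 1448 among the 14413 genes. Against both controls together, none of the 7 was called with limma, edgeR or DESeq2 (0.201% of all genes with limma, and 32 and 136 genes with edgeR and DESeq2). There 2 had an unadjusted p-value under 0.05, and all 7 overlapped (1.17% of all genes did not). The unadjusted limma p of 0.0512 of Selenom ranked 1548 among all genes in that comparison. In each of these 3 comparisons, which share libraries, 6 of the 7 log2 fold changes were below 0. Some were only slightly so, such as Selenof at -0.0051 in BMDM-HG-exo against PBS. The medians of the 7 genes were -0.05 for BMDM-NG-exo against PBS, -0.06 for BMDM-HG-exo against PBS and -0.04 against both controls. Those of all genes were 0.0045, 0.0034 and 0.00031, so log2 fold changes below 0 were common among all genes too.

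Selenom followed the same order of groups as Selenow within the exosome experiment. Its PBS libraries had 651, 585, 519 and 613 normalized counts. The BMDM-NG-exo libraries had 523, 492, 510.4 and 469, and the BMDM-HG-exo libraries 595, 429, 465 and 409.6. BMDM-HG-exo 1 stood at the level of PBS, and both exosome groups overlapped with PBS. The log2 fold change against PBS was -0.33 for BMDM-HG-exo (SE 0.107, limma BH-adjusted p = 0.0668) and -0.24 for BMDM-NG-exo (adjusted p = 0.289). With the date as a block the former was called (adjusted p = 0.0392), as it was without PBS 3 (0.0301) or BMDM-HG-exo 1 (0.00768) in limma. Within dates Selenom was lower in 4 of 4 for both.

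None of the other 5 genes was called in the exosome experiment. Selenos had 1518 to 1631 normalized counts in PBS, 1441 to 1635 in BMDM-NG-exo and 1342 to 1549.8 in BMDM-HG-exo. Its log2 fold change for BMDM-HG-exo against PBS was -0.14 (interval -0.26 to -0.01, limma BH-adjusted p = 0.243), and within dates it was lower in 4 of 4, by log2 differences from -0.25 to -0.07. Selenon ran from 2766 to 3450.3 normalized counts over the 12 libraries, both ends in BMDM-NG-exo. Selenof ran from 4196 to 4689, Selenok from 5283 to 5877 and Selenot from 4761 to 5481. For these 4 genes the log2 fold changes against PBS lay between -0.06 and 0.05, with 95% intervals inside -0.18 to 0.14.

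**Figure D4:**
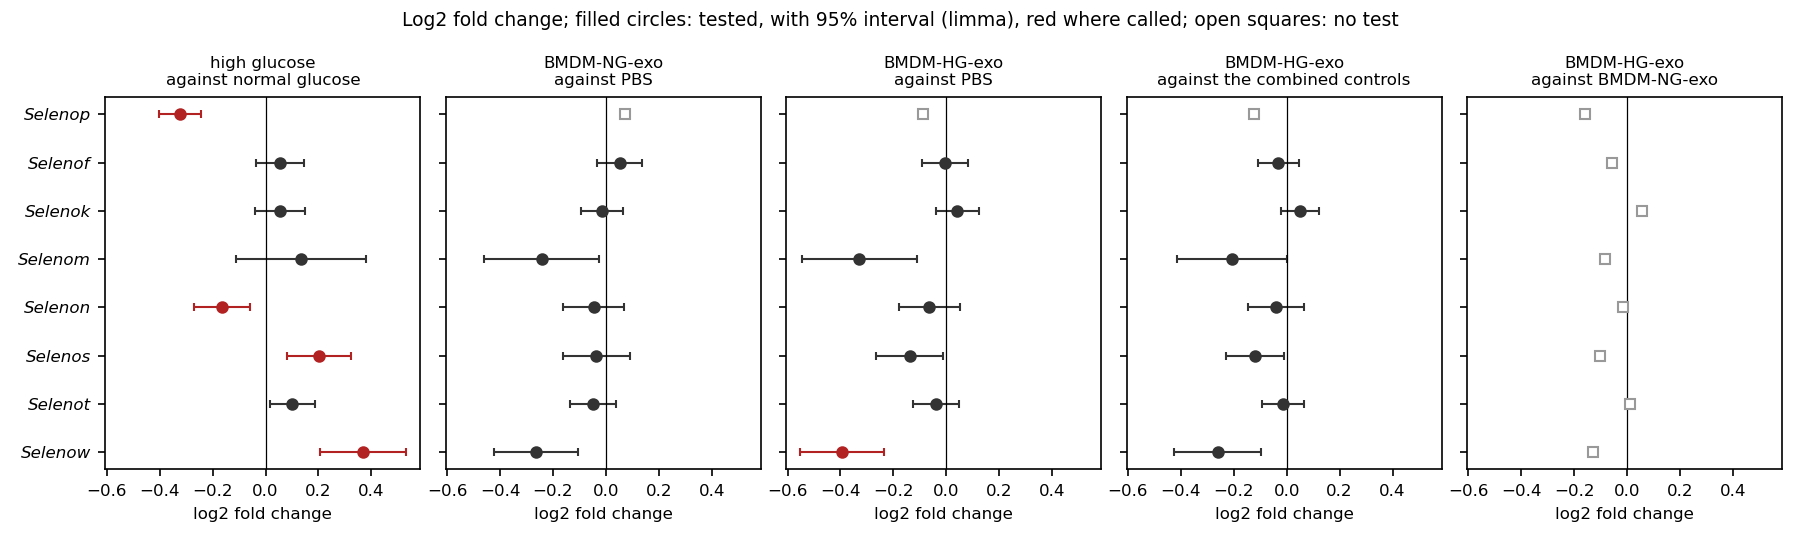
Log2 fold change of the 8 genes in 5 comparisons. Filled circles with 95% intervals were tested (limma) and are red where called, and open squares were not tested. In high glucose Selenop (-0.32) and Selenow (0.37) stand on opposite sides of 0.

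Of the other 16 selenoprotein genes, 12 were listed, and 6 of these 12 were called in high glucose, 4 higher and 2 lower, beside 13.3% of all genes (7.74% higher and 5.53% lower). Txnrd1, the cytosolic thioredoxin reductase, went from 7354 ± 291 to 11904 ± 507 normalized counts (SD, n = 4 each), a log2 fold change of 0.69 (limma BH-adjusted p = 8.24e-16). Msrb1, a methionine sulfoxide reductase, rose by 0.41 on the log2 scale (adjusted p = 2.97e-07). Gpx1, the cytosolic glutathione peroxidase, rose by 0.15 and Sephs2, which makes the selenium donor, by 0.16. Gpx3, the plasma peroxidase, fell by 0.27 on the log2 scale, and Dio2, which activates thyroid hormone, fell by 1.58 from a mean of 87.3 normalized counts. Gpx4, the lipid peroxidase, stood at 0.12 on that scale (adjusted p = 0.0611). The median of the 12 log2 fold changes was 0.08.

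In the exosome experiment, 1 of the 12 genes was called. Gpx1 fell by 0.22 on the log2 scale in BMDM-NG-exo against PBS, where 3% of all genes were called (limma BH-adjusted p = 4.78e-05). In BMDM-HG-exo against PBS its log2 fold change was -0.13, past the adjusted p threshold (0.0196) but under the limit of 0.15. None of the 12 genes was called, with 3 at an unadjusted p-value under 0.05. In that comparison an unadjusted limma p of 0.0342 (Selenos) ranked 2029 among the 14413 genes. Txnrd1 and Msrb1 had log2 fold changes of 0.10 and 0.01 there.

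**Figure D5:**
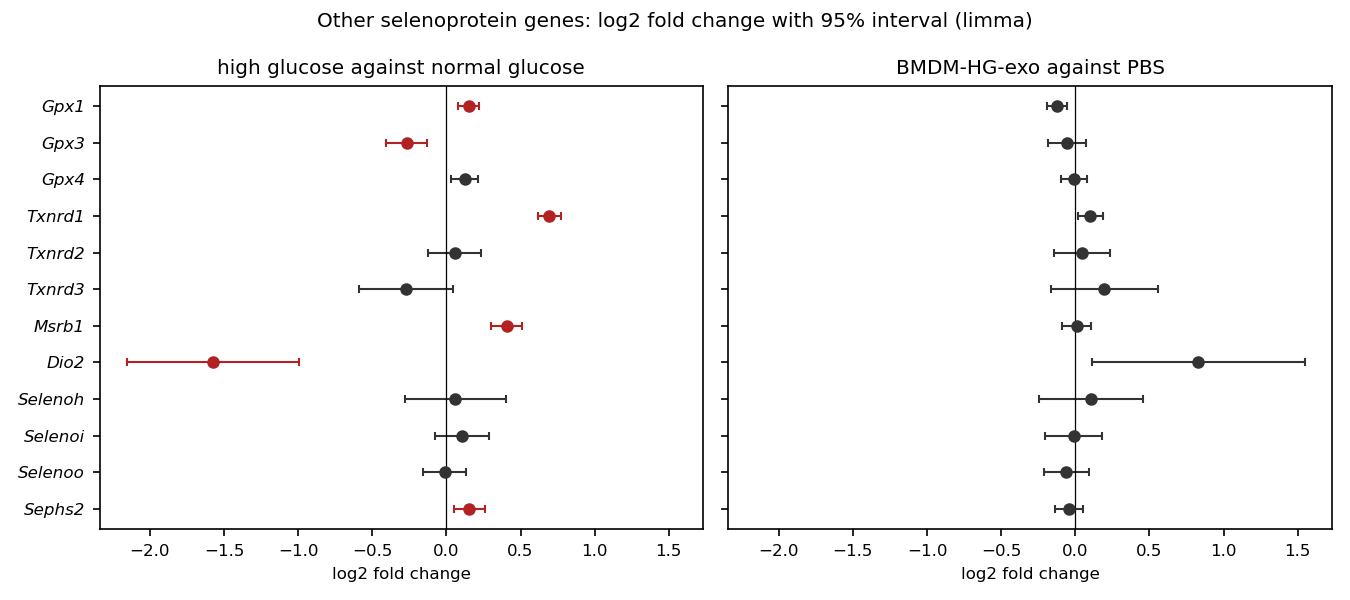
Log2 fold change with 95% interval of the 12 other selenoprotein genes in high against normal glucose (left) and in BMDM-HG-exo against PBS (right), red where called with limma. Txnrd1 (0.69) and Dio2 (-1.58) moved furthest in high glucose, and none was called on the right.

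Of the genes that make and insert selenocysteine, all 15 were listed, and in high glucose 3 were called higher and 1 lower, beside 7.74% and 5.53% of all genes. Besides Sephs2, which is both a selenoprotein and part of this machinery, Rpl30 (a ribosomal protein that binds SECIS elements) rose by 0.14 and Eif4a3 (a helicase that limits SECIS access) by 0.18 on the log2 scale. Scly, the lyase that recovers selenium from selenocysteine, fell by 0.25 on the log2 scale (limma BH-adjusted p = 0.0122). Secisbp2 stood at 0.05 (adjusted p = 0.716). The median of the 15 genes was 0.03. In the exosome comparisons with PBS none was called with limma, with 4 at an unadjusted p-value under 0.05 for BMDM-NG-exo and 1, Secisbp2 with a log2 fold change of -0.13, for BMDM-HG-exo. The ranks given above show how often such p-values occurred among all genes. Of the receptors that take up Selenop, Lrp8 and Lrp1 were listed and neither was called in any comparison. Their log2 fold changes in high glucose were 0.23 (adjusted p = 0.237) and 0.10 (limma BH-adjusted p = 0.0700).

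The ER partners of these proteins included genes that rose with high glucose. Of 23 partners of ER quality control, 5 were called higher and none lower: Itpr1 (log2 fold change 0.34), Nploc4 (0.17), Calr (0.16), Atp2a2 (0.13) and Uggt1 (0.13), with a median of 0.07 over the 23. Of all genes, 7.74% were called higher and 5.53% lower, and their median was -0.0031. Itpr1, the calcium channel that works with Selenok, rose from 2551 ± 161 to 3223 ± 51.0 normalized counts (SD, n = 4 each). Of 12 genes of the unfolded protein response, which raises ER chaperones when folding fails, Xbp1 (0.30), Atf4 (0.14) and Hspa5 (0.12) were called higher and none lower.

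With BMDM-HG-exo against PBS, 2 of the 23 and 3 of the 12 genes were called, all lower, beside 3.08% of all genes called lower. The ubiquitin ligase Syvn1 (log2 fold change -0.21, adjusted p = 0.0395) and its partner Herpud1 (-0.29, limma BH-adjusted p = 0.00340) were lower. So were the chaperones Hspa5 (-0.17), Pdia4 (-0.19) and Dnajb11 (-0.17). Calr (-0.148, limma BH-adjusted p = 0.00197) and Hsp90b1 (-0.144, adjusted p = 0.00146) passed the p threshold but not the limit of 0.15. The calls in high glucose had no such limit, so the counts of the 2 experiments are not alike. The medians were -0.05 for the 23 partners and -0.14 for the 12 genes of the unfolded protein response, against 0.0034 for all genes. With BMDM-NG-exo against PBS only Itpr1 (-0.17, adjusted p = 0.0482) was called in these 2 lists. Hspa5 (-0.11, limma BH-adjusted p = 0.0370) passed the p threshold there but not the fold change limit. For BMDM-NG-exo the medians were -0.03 for the 23 partners and -0.08 for the 12 genes, against 0.0045 for all genes. Of the 12 log2 fold changes, 9 were below 0 and 3 above, so most were lower with BMDM-NG-exo too. Against both controls together none of either list was called with limma, while 5 genes of each list had an unadjusted p-value under 0.05. An unadjusted limma p of 0.0512 (Selenom) ranked 1548 among the 14413 genes there, a smaller share than in either list. The lists were not tested as sets.

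The genes whose log2 levels ran most like Selenop were found by Pearson r among genes with a mean of at least 50. Over the 12 exosome libraries they were March1 (r = 0.92), Rgl1 (0.88), Fcgr3 (0.88), Ppp6c (0.87) and Gpr34 (0.86). Over all 20 libraries they were Decr2 (0.91), Gpr34 (0.90), Arrdc3 (0.90), Dab2 (0.88) and Rgl1 (0.87), so Gpr34 and Rgl1 were in both groups of 5. These are the highest of 11643 and 11718 genes, and none of the other 7 genes of the set came near them. Over the 12 exosome libraries, the r of these 7 with Selenop lay between -0.17 (Selenok) and 0.51 (Selenof). Over the 20 libraries, the r of the other 7 genes with Selenop lay between -0.47 (Selenow) and 0.46 (Selenon). These are descriptions over libraries that share treatment groups and size factors.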

How the data were processed

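Gene levels were measured in 20 libraries of mouse BMDM (stranded total RNA, depleted of ribosomal cDNA). The authors mapped reads with STAR 2.5.3a and counted them per gene with FeatureCounts 2.0.1, read 2 as sense. The deposited signal is the count divided by the DESeq2 size factor of the library, which the authors computed over the whole table. The build was GRCm38 per the submitters' processing notes, and the annotation used for counting is not given in the sources used here. Names and coordinates came from GENCODE M21, which held 14421 of the 14456 genes. The lowest median of any gene was 11 reads, and rarer genes were not analysed here. Whole reads were recovered from the smallest step of each column (100% of values within a tolerance of 0.0001) and used for totals, edgeR and DESeq2. No 2 libraries of a group were copies (chi-square per degree of freedom 5.19 to 41.9 over 30 pairs).

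Groups were compared by limma 3.58.1 (R 4.3.3, eBayes with trend, two-sided) on log2 values with a pseudocount of 1, with Benjamini-Hochberg adjustment over genes whose mean was 10 or more. The 8 glucose and the 12 exosome libraries were fitted apart, the latter with 3 groups together and again with both controls as 1 group. Calls needed an adjusted p under 0.05, and in the exosome experiment a log2 fold change of 0.15 or more in size. Fold changes on this scale slightly understate those of low genes. The members, gene lists, comparisons and tests were chosen with earlier results of these data known. Named were the 8 genes, up to 6 called genes per list and comparison, the genes Gpx1, Gpx4, Txnrd1, Msrb1, Sephs2, Secisbp2, Lrp8 and Lrp1, and the 5 genes most like Selenop. In the lists of ER partners and the unfolded protein response, genes stopped only by the fold change limit were also named. The dates in the sample labels pair the exosome libraries. Deviations from the group means correlated with a mean r of 0.012 within dates (12 pairs) and -0.004 between dates (36 pairs). Alternatives varied the pseudocount, filter, normalization and variance trend, used edgeR 4.0.16 or DESeq2 1.42.0, added the block, and left out each library. The fits were tested on simulated data. Promoters came from RefSeq (GRCm38.p6), with windows from 250 bases before to 50 after each start. Python 3.11.15 drew the figures.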

Additional observations from a re-analysis of the deposited data

How the results depend on the processing

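Among the 840 recomputed log2 fold changes of the 8 genes, none changed direction with a call. In high against normal glucose the count of called genes went from 4 to 1 (Selenop) without the variance trend and to 1 with the replicate block, and leaving out 1 library gave 2 to 4. Calls over all genes fell as well, from 1914 to 654 without the variance trend and to 788 with the replicate block. With 1 library left out they were 1370 to 2027. The glucose libraries share only the numbers 1 and 6, and the correlation of same-numbered libraries (mean r 0.008 over 2 pairs, against -0.001 over 14 others) did not show that numbers pair them, and the fold changes under this block come from those 4 libraries alone. With it the adjusted p (limma) was 0.240 for Selenow, 0.614 for Selenos, 0.359 for Selenon and 1.91e-07 for Selenop. This block leaves almost no residual degrees of freedom, so these adjusted p-values rest mostly on the variance shared over genes.

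In BMDM-NG-exo against PBS the count rose from 0 to 1 (Selenow) with a pseudocount of 5, TMM factors, DESeq2 and the replicate block, and leaving out 1 library gave 0 to 1 (1 without BMDM-HG-exo 1 or 2). Over all genes these alternatives called 445, 443, 512 and 505 in that order, from 432. In BMDM-HG-exo against PBS the count of the members rose from 1 to 2 with the replicate block (all genes: from 698 to 810). It was 1 to 2 with 1 library left out. It was 0 against both controls together in each alternative, with 0 to 0 on leaving out 1 library. Between the exosome groups, the comparison that chose the set, the count is a description of Selenop and not a test. It went from 1 to 0 with TMM factors, quantile normalization, edgeR and no variance trend, and was 0 to 1 with 1 library left out. It was 0 without PBS 2 or 4, BMDM-NG-exo 2, 3 or 4, or BMDM-HG-exo 1 or 3. The replicate block changed no other call. The cause of these changes was not tested, apart from the smaller number of libraries. The log2 fold change of Selenop for BMDM-NG-exo against PBS was 0.11 with quantile normalization, from 0.07. Per kb of the longest transcript, the levels of 5 genes moved by more than the spread between libraries. The lowest count of any of the 8 genes in a library was 335 reads.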

Other observations

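Promoters of all 8 genes were listed by RefSeq and searched on both strands for 2 motifs. The antioxidant response element (TGACNNNGC) was found for 1 of the 8 genes, Selenok, as TGACTGGGC starting 44 bases before the RefSeq transcription start, while 12.4% of 32851 promoters held it. The RefSeq start of Selenok (window chr14:29968130-29968429) differs from the GENCODE M21 start at 29968308. By the GENCODE coordinates the match lies inside the gene span. The ER stress response element (CCAAT and CCACG with 9 bases between them) was found for none, and in 0.119% of all promoters. A match is a description of letters in this window and not a site.

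By length class, the protein-coding genes with at most 1000 bases of merged exons had median log2 fold changes of -0.0033 in high glucose and 0.035 in BMDM-NG-exo against PBS (262 genes). In the same comparisons Selenow had 0.37 and -0.26.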
